A study of Mus musculus with 24 samples.

Results

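The 9 genes described here carry the signal of interleukin 15 (IL-15) and the identity of natural killer (NK) cells, the most abundant lymphocytes of the mouse decidua. They are *Il15*, *Il15ra*, *Il2rb*, *Il2rg*, *Jak3*, *Eomes*, *Tbx21*, *Nfil3* and *Id2*, chosen by name out of the 55401 genes of the deposited count table. IL-15 is presented to NK cells by its own alpha receptor on a neighbouring cell and is read by the beta chain and the common gamma chain. Those chains signal through JAK kinases to STAT proteins and keep NK cells alive and dividing. *Nfil3* and *Id2* act early in making innate lymphoid cells, while *Eomes* and *Tbx21* encode the T-box factors of mature NK cells. *Eomes* has a second role in trophoblast stem cells, so its RNA is not specific to lymphocytes.

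The RNA came from the maternal-fetal interface (MFI), the decidua and placenta together, of wild-type (WT) mice and of mice homozygous for a *C1qtnf6* deletion made with CRISPR-Cas9 (KO). MFI was taken at 4 gestation days (gd), mid-gestation gd10.5 and gd14.5 and the later gd16.5 and gd19.5, and each of the 8 groups of genotype and stage has 3 libraries, 24 in all. The labels name no strain, age, dam, litter or date, so it is not known whether the libraries of a group are separate animals, and p-values measure the spread between these libraries. The questions are how the IL-15 axis changes through gestation, and whether the loss of *C1qtnf6*, a gene of placental trophoblast, goes with a change in it. In such bulk tissue, fewer cells of a type and less RNA per cell cannot be told apart.

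Total counts per library ran from 20975717 to 37383108. Levels are given as CPM, the usual count of a gene scaled to a common library total. The limit of detection was set at 3 counts, or 0.0803 to 0.143 CPM. CPM are scaled here to library sizes normalized by TMM, which sets libraries of different makeup on one scale. *C1qtnf6* was lower in every KO library than in any WT library at each stage, with means from 67.1 to 158 CPM in WT and from 0.416 to 1.05 CPM in KO.

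One library stood apart. KO gd10.5 replicate 2 lay outside the range of the other 5 libraries of gd10.5 for 8 of the 9 genes, all but *Jak3*. The summed level of 5 spongiotrophoblast and glycogen cell markers was 10542 CPM in it, against 753 to 1957 CPM in the other 5. Its 15 NK identity genes summed to 115 CPM against 157 to 211, and its decidual stroma markers to 2589 CPM against 3922 to 13693. The 4 Y-linked genes summed to 71.0 CPM there, with a highest value of 0.311 CPM elsewhere at gd10.5. Results of KO gd10.5 that rest on this library are given with and without it, except for the levels per library and group. At the later stages each group also had a library with a high Y-linked sum, from 89.1 CPM in WT gd16.5 to 194 CPM in KO gd16.5. At gd16.5 the genotypes were unbalanced, with 0.486, 0.663 and 89.1 CPM in WT and 1.14, 188 and 194 CPM in KO. Y-linked expression was a covariate in an alternative fit of KO against WT, given in the last section. Its part in the other results, and the part of the other markers, was not tested.

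Promoter windows are shown for members at the ends of the range of change between gd10.5 and gd14.5. These are *Il15ra* and *Eomes*, which fell most in WT, and *Il2rg*, which was not called in either genotype with all libraries. In KO the fall of *Tbx21*, at few counts, was larger than that of *Eomes*. A window holds the 250 bases before the start of the gene in RefSeq, on GRCm38.p6, read 5′ to 3′ on the strand of the gene. *Il15ra* has a window for each of 2 starts, on the plus strand at chr2:11705043-11705292 and chr2:11705462-11705711. That of *Il2rg* is on the minus strand at chrX:101268256-101268505, and that of *Eomes* on the plus strand at chr9:118477939-118478188. Capitals mark the matches found to 4 motifs, each searched on both strands: AGGTGT for T-box factors, TTCNNNGAA for STAT proteins, CCGGAA for ETS factors and TTANGTAA for NFIL3.
Il15ra window 1: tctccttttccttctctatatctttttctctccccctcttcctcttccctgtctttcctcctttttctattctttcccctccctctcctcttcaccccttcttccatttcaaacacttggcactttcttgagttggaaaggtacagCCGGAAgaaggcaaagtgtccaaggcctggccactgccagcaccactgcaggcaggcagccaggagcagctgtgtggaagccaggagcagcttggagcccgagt
Il15ra window 2: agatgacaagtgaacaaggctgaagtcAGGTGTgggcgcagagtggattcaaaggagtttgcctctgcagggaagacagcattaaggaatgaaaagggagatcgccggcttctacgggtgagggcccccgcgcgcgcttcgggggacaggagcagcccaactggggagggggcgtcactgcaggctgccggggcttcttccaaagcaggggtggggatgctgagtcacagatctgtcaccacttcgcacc
Il2rg: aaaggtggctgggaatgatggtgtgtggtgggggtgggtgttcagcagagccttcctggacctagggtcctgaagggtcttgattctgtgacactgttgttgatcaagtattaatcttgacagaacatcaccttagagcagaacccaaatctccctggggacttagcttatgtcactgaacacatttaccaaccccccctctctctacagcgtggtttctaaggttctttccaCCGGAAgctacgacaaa
Eomes: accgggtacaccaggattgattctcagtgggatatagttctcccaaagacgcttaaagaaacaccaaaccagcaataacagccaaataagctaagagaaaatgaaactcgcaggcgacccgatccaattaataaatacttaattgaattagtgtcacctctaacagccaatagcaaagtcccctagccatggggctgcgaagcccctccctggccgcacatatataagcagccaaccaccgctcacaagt
The first *Il15ra* window held an ETS match that begins 104 bases before the start, and the second a T-box match that begins 223 bases before it. The *Il2rg* window held an ETS match 17 bases before its start, and the *Eomes* window held none of the 4 motifs. The 4 motifs had no match either in the windows of *Jak3*, *Tbx21*, *Nfil3* and *Id2*. *Il15* and *Il2rb* had no window. Among 32851 windows of this length, 11.8% held the T-box motif, 7.02% the STAT motif, 12.03% the ETS motif and 2.06% the NFIL3 motif. The STAT and ETS motifs can share bases. These matches are descriptions of the sequence and were not tied to binding in this tissue.

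Levels are compared between genes only per length, as RPKM, which is CPM divided by the length of the gene in kb. At WT gd10.5 the highest RPKM was that of *Il2rb*, 45.7 ± 5.66 (SD, n = 3), whose libraries overlapped those of *Id2* at 40.3 ± 9.14. *Nfil3* followed at 21.3 RPKM and *Il2rg* at 16.2, then *Jak3* at 9.23 and *Eomes* at 7.98, which overlapped. The cytokine and its own receptor were far lower, with *Il15ra* at 1.71 RPKM and *Il15* at 1.31, overlapping, and *Tbx21* came last at 0.247 RPKM. By WT gd19.5 *Id2* led with 27.4 RPKM, ahead of *Il2rb* at 12.02, *Il2rg* at 10.6 and *Nfil3* at 9.002. *Jak3* stood at 2.85 RPKM and *Il15* at 1.12, and *Eomes* at 0.272 overlapped *Il15ra* at 0.244. *Id2* was first from gd14.5 on in both genotypes, with libraries that did not overlap those of *Il2rb* at any of these stages.

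*Il15*, on chromosome 8 from 82331632 to 82403222 on the minus strand of GRCm38, encodes the cytokine. Its WT libraries had 3.78, 2.75 and 2.37 CPM at gd10.5 and 1.45, 1.55 and 1.26 CPM at gd14.5. They had 1.73, 2.74 and 1.36 CPM at gd16.5 and 2.39, 2.50 and 2.71 CPM at gd19.5. In KO the levels were 4.37, 1.52 and 3.87 CPM at gd10.5 and then 1.20, 1.62 and 1.38 at gd14.5, followed by 2.69, 2.86 and 2.42 at gd16.5 and lastly 2.27, 2.79 and 1.74 at gd19.5. *Il15* was thus lowest at gd14.5 in both genotypes, and its WT libraries of gd19.5 lay inside the range of those of gd10.5.

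*Il15ra*, on chromosome 2 from 11705290 to 11734317 on the plus strand, encodes the alpha receptor that presents IL-15. WT libraries had 8.56, 8.12 and 6.09 CPM at gd10.5, then 1.16, 0.829 and 0.799 CPM at gd14.5. They stayed at that level with 0.867, 1.02 and 0.924 CPM at gd16.5 and 1.11, 0.970 and 1.17 CPM at gd19.5. The KO libraries had 8.10, 0.761 and 9.79 CPM at gd10.5, where replicate 2 lay at the level of the later stages. At gd14.5, gd16.5 and gd19.5 the KO levels were between 0.689 and 1.09 CPM. *Il15ra* thus fell within 1 step of gestation, and its later libraries held only 17 to 44 counts each.

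*Il2rb*, on chromosome 15 from 78479256 to 78495271 on the minus strand, encodes the beta chain shared by the receptors of IL-2 and IL-15. In WT it had 205, 214 and 168 CPM at gd10.5 and then 78.7, 81.7 and 90.6 at gd14.5, followed by 71.2, 59.5 and 70.0 at gd16.5 and lastly 50.9, 49.6 and 54.0 at gd19.5. In KO it had 223, 110.0 and 192 CPM at gd10.5 and then 99.8, 83.2 and 104 at gd14.5, followed by 74.6, 82.9 and 90.3 at gd16.5 and lastly 65.9, 57.0 and 62.8 at gd19.5. The WT libraries of each stage lay wholly below those of the stage before. KO libraries lay wholly above WT libraries at gd16.5 and at gd19.5 and overlapped them at gd10.5 and gd14.5.

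*Il2rg*, on chromosome X from 101264378 to 101268255 on the minus strand, encodes the common gamma chain used by the receptors of a family of lymphoid cytokines. Its WT libraries had 37.5, 40.1 and 38.6 CPM at gd10.5 and then 39.7, 43.2 and 46.1 at gd14.5, followed by 32.3, 30.6 and 41.8 at gd16.5 and lastly 26.8, 25.3 and 23.5 at gd19.5. KO means were 41.9, 47.0, 32.5 and 25.9 CPM in the same order. Its mean was thus highest at gd14.5 in both genotypes. *Jak3*, on chromosome 8 from 71676296 to 71690575 on the plus strand, encodes the kinase that binds the gamma chain. It had 46.0, 44.7 and 57.5 CPM in WT at gd10.5 and then 34.4, 34.5 and 35.2 at gd14.5, followed by 21.1, 17.9 and 26.7 at gd16.5 and lastly 16.8, 16.0 and 12.97 at gd19.5. KO means of *Jak3* were 48.1, 34.6, 21.3 and 17.01 CPM. In both genotypes the *Jak3* libraries of each stage lay wholly below those of the stage before.

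*Eomes*, on chromosome 9 from 118478212 to 118486132 on the plus strand, was the member that varied most, with a mean 39.6-fold higher in its highest group than in its lowest. WT libraries had 33.8, 36.8 and 28.9 CPM at gd10.5 and then 4.31, 3.09 and 5.09 at gd14.5, followed by 1.16, 1.55 and 2.14 at gd16.5 and lastly 1.23, 1.12 and 1.04 at gd19.5. KO libraries had 41.3, 12.9 and 39.4 CPM at gd10.5 and then 6.79, 4.84 and 3.52 at gd14.5, followed by 1.14, 1.42 and 1.41 at gd16.5 and lastly 0.742, 0.886 and 0.885 at gd19.5. At gd19.5 the KO libraries all lay below the WT libraries. *Gm33460* overlaps *Eomes* on the opposite strand, and the counting did not use strand, but its group means were at most 0.341 CPM.

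*Tbx21*, on chromosome 11 from 97098071 to 97115331 on the minus strand, encodes T-bet and was near the limit of detection. It had 21, 26 and 10 counts in the WT libraries of gd10.5 and 16, 9 and 25 counts in those of KO. From gd14.5 on, no library of either genotype held more than 5 counts, and 2 WT libraries held 0. A count of 0 allows up to 3 counts, which covers counting error only. Within single stages, *Tbx21* passed the filter for the comparison of genotypes at gd10.5 only.

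*Nfil3*, on chromosome 13 from 52967209 to 52981073 on the minus strand, encodes a basic leucine zipper factor of early innate lymphoid cells that also belongs to the clock. WT libraries had 43.0, 50.8 and 35.5 CPM at gd10.5, and all later WT libraries lay between 14.6 and 20.9 CPM. The KO libraries had 48.1, 24.3 and 58.4 CPM at gd10.5 and between 15.2 and 23.2 CPM later. *Id2*, on chromosome 12 from 25093799 to 25097140 on the minus strand, encodes an inhibitor of DNA binding that blocks E proteins. Its group means stayed between 63.4 and 99.8 CPM, a 1.57-fold range that was the narrowest of the 9 genes. Its WT libraries of gd16.5, from 86.9 to 93.5 CPM, lay inside the range of those of gd10.5, from 78.9 to 122.6 CPM.

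**Figure D1:**
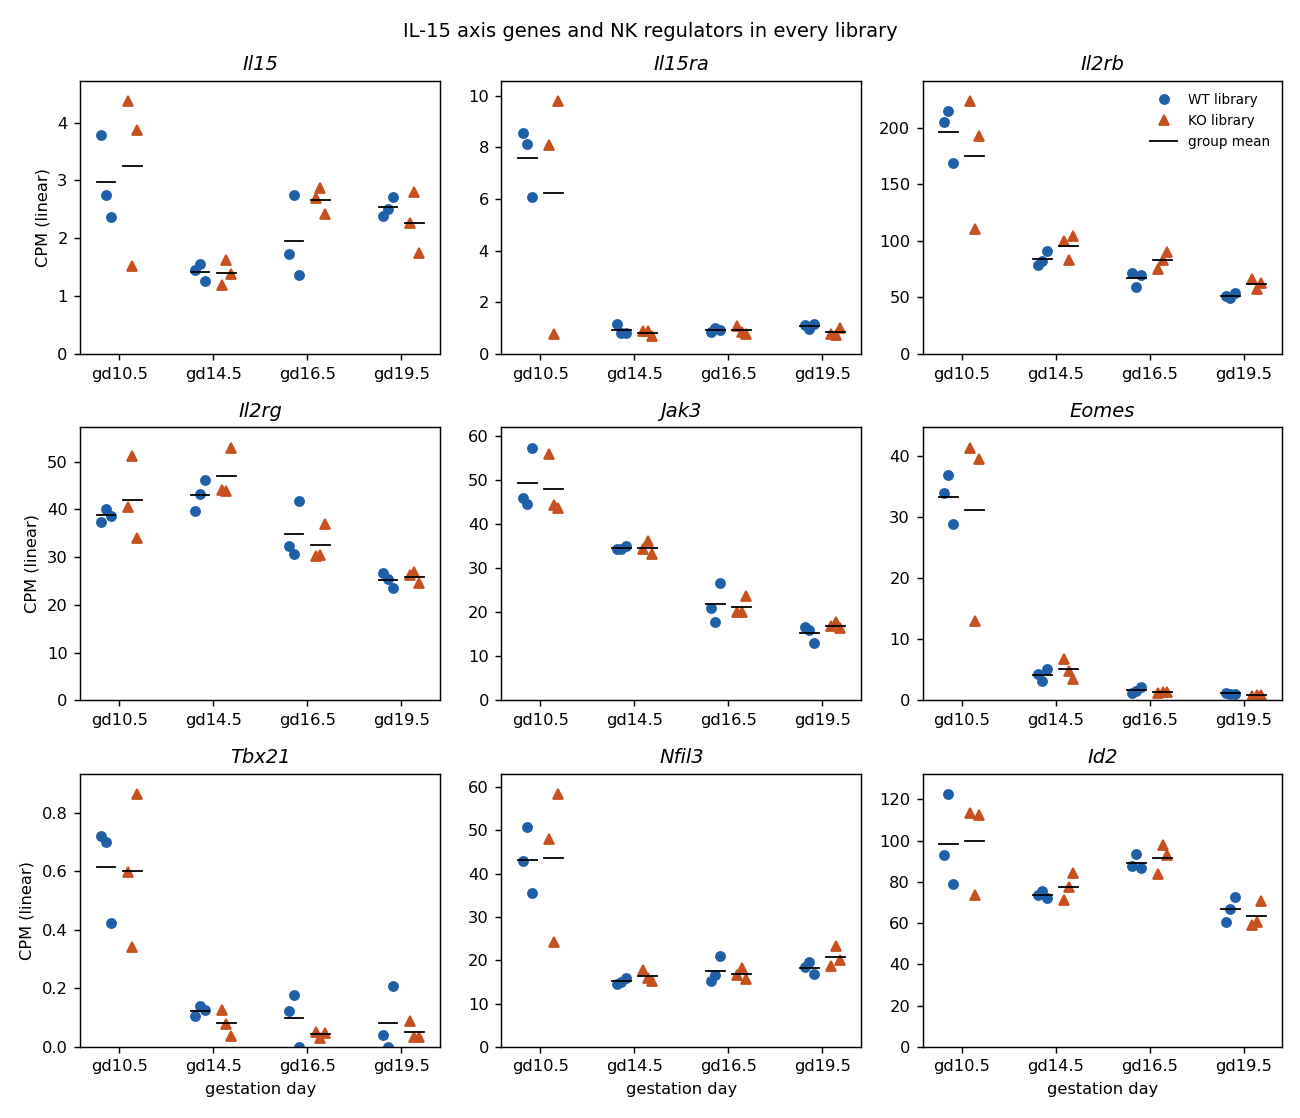
CPM of each gene on a linear axis from 0 (vertical) by gestation stage (horizontal), with blue circles for WT libraries, orange triangles for KO libraries and a short black line at the mean of the 3 libraries of a group. *Eomes* fell from a mean of 33.2 to 1.13 CPM in WT while *Id2* stayed between 66.8 and 98.2 CPM, and the low KO point of *Il15ra* at gd10.5 is replicate 2, at 0.761 CPM.

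Between gd10.5 and gd14.5, 8 of the 9 genes fell in WT by the quasi-likelihood test of edgeR, adjusted over 18523 genes, of which 28.3% were called lower. *Il15ra* fell by 3.01 on the log2 scale (standard error 0.20, edgeR adjusted p = 1.01e-07) and *Eomes* by 3.00 (standard error 0.19, edgeR adjusted p = 1.00e-07). *Tbx21* dropped by 2.30 (edgeR adjusted p = 0.00487), although its gd14.5 libraries held 3 to 5 counts. *Nfil3* fell by 1.51 (edgeR adjusted p = 1.31e-06), *Il2rb* by 1.22 (edgeR adjusted p = 5.46e-07) and *Il15* by 1.05 (edgeR adjusted p = 0.00276). The falls of *Jak3*, by 0.50 (edgeR adjusted p = 0.00676), and of *Id2*, by 0.41 (edgeR adjusted p = 0.0146), were smaller. *Il2rg* alone was not called, with a log2 change of 0.16 (standard error 0.10, edgeR adjusted p = 0.218). The median log2 change of the 9 genes was -1.22, against -0.01 over all genes tested. Between these stages the decidual stroma markers went from a mean of 9679 to 3092 CPM in WT, the spongiotrophoblast markers from 1655 to 24208 CPM and the giant cell markers from 6237 to 12768 CPM. Their part in the falls was not tested. Without WT gd10.5 replicate 2 *Id2* was no longer called (log2 change -0.23, edgeR adjusted p = 0.0650).

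The same step in KO gave 7 genes called lower, against 24.1% of 18467 genes. *Il15ra* fell by 2.91 (standard error 0.65, edgeR adjusted p = 0.00442), *Tbx21* by 2.82, *Eomes* by 2.63, *Nfil3* by 1.42, *Il15* by 1.22, *Il2rb* by 0.88 and *Jak3* by 0.48 on the log2 scale. *Id2* had a log2 change of -0.37 (edgeR adjusted p = 0.0632) and *Il2rg* one of 0.16 (edgeR adjusted p = 0.371). Without KO gd10.5 replicate 2, all 9 genes were called, 8 lower and *Il2rg* higher, against 10701 of 19003 genes called in that fit. *Il15ra* then fell by 3.42, *Eomes* fell by 2.99, *Il2rb* fell by 1.12 and *Id2* fell by 0.54 (edgeR adjusted p = 0.000718), while *Il2rg* rose by 0.34 (edgeR adjusted p = 0.0328). Without KO gd10.5 replicate 1, the fall of *Il15* was not called (log2 change -0.95, edgeR adjusted p = 0.0582).

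From gd14.5 to gd16.5, 3 genes fell in WT, against 9.91% of genes. *Eomes* dropped by a further 1.36 (standard error 0.22, edgeR adjusted p = 0.000926), *Jak3* by 0.66 (standard error 0.14, edgeR adjusted p = 0.00485) and *Il2rb* by 0.32 (standard error 0.10, edgeR adjusted p = 0.0352). *Il15* had a log2 change of 0.46 (edgeR adjusted p = 0.228), *Il2rg* one of -0.30 (edgeR adjusted p = 0.0587) and *Id2* one of 0.28 (edgeR adjusted p = 0.134). The call of *Il2rb* was lost without WT gd14.5 replicate 1, 2 or 3 or WT gd16.5 replicate 2, with edgeR adjusted p between 0.0567 and 0.135. *Il2rg* was called without WT gd16.5 replicate 3, which was its highest library of that stage (log2 change -0.44, edgeR adjusted p = 0.00292).

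In KO, 3 genes fell at this step, against 8.1% of genes. These were *Eomes*, by 1.92 (standard error 0.42, edgeR adjusted p = 0.0109), *Jak3*, by 0.70 (standard error 0.11, edgeR adjusted p = 0.00211), and *Il2rg*, by 0.53 (standard error 0.14, edgeR adjusted p = 0.0271). *Il15* had a log2 change of 0.92 (edgeR adjusted p = 0.0840), with every gd16.5 library above every gd14.5 library. The call of *Il2rg* was lost when any 1 of 5 of the 6 libraries was left out, all but KO gd16.5 replicate 3, with edgeR adjusted p between 0.0576 and 0.107.

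At the last step, gd16.5 to gd19.5, *Il2rb*, *Il2rg* and *Jak3* fell in WT, against 4.81% of genes. These are the chains that read IL-15 and the kinase of the gamma chain. *Jak3* dropped by 0.51 (edgeR adjusted p = 0.0460), *Il2rg* by 0.46 (edgeR adjusted p = 0.0200) and *Il2rb* by 0.37 (edgeR adjusted p = 0.0398). Each of these calls was close to the threshold. *Il2rb* and *Jak3* were not called without any 1 of 5 of the 6 libraries, the exception being WT gd16.5 replicate 2, with edgeR adjusted p between 0.0660 and 0.187. The call of *Il2rg* was lost without WT gd19.5 replicate 2 or 3, with edgeR adjusted p of 0.0671 and 0.0933. In KO, 0 of the 9 genes were called lower by edgeR, against 0.666% of genes. At an unadjusted p under 0.05 there were 3 of the 9, against 3382 of 18467 genes. DESeq2 called *Id2* lower at this step in both genotypes, with log2 changes of -0.43 in WT (DESeq2 adjusted p = 0.0185) and -0.51 in KO (DESeq2 adjusted p = 0.0435). The KO log2 changes of *Il2rb*, *Il2rg* and *Jak3* were -0.42, -0.33 and -0.33 (edgeR adjusted p = 0.310, 0.251 and 0.144). Whether these steps differ between WT and KO is covered by the interaction test, which called no member.

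**Figure D2:**
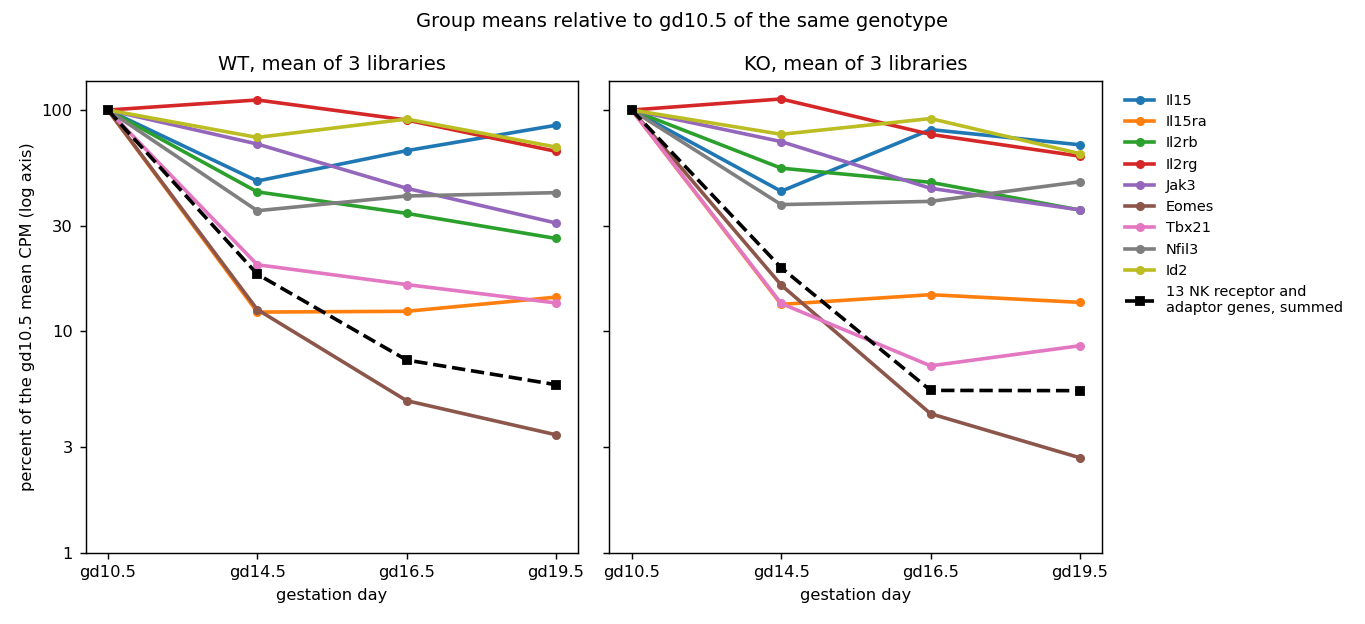
Mean CPM of each gene as a percent of its own mean at gd10.5 (vertical, log axis) by gestation stage (horizontal), for WT and KO, in separate panels, with the sum of 13 NK identity genes as a dashed black line. At WT gd19.5 *Eomes* was at 3.41%, *Il2rb* at 26.3% and *Il15* at 85.4%, with the NK identity genes at 5.75%. KO percents include replicate 2 of gd10.5, and the line of *Tbx21* rests on at most 5 counts per library from gd14.5 on.

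The 9 genes did not keep pace with one another. At WT gd19.5 *Eomes* was at 3.41% of its gd10.5 mean, *Il15ra* at 14.3%, *Il2rb* at 26.3% and *Jak3* at 30.9%. *Nfil3* was at 42.3%, *Il2rg* at 65.1%, *Id2* at 68.0% and *Il15* at 85.4%. KO gave 2.69% for *Eomes*, 13.5% for *Il15ra*, 35.3% for *Il2rb* and 35.4% for *Jak3*. It gave 47.4% for *Nfil3*, 61.9% for *Il2rg*, 63.5% for *Id2* and 69.7% for *Il15*. Without KO gd10.5 replicate 2 the KO percents were 2.08 for *Eomes*, 9.40 for *Il15ra*, 29.8 for *Il2rb*, 34.1 for *Jak3*, 38.8 for *Nfil3*, 55.0 for *Il15*, 56.2 for *Id2* and 69.6 for *Il2rg*. With or without it, *Eomes* and *Il15ra* were the lowest of these 8 genes in both genotypes, and *Il15*, *Id2* and *Il2rg* the highest. *Tbx21*, with 1, 0 and 5 counts in the WT libraries of gd19.5, has too few counts for such a percent.

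The NK identity list had 15 of its 16 genes in the table, and none of them was at 0 in every library of a group. Its summed level in WT ranged from 157 to 201 CPM at gd10.5, 78.7 to 87.0 at gd14.5, 80.5 to 99.9 at gd16.5 and 88.3 to 107 at gd19.5. In KO it ranged from 115 to 211, 77.8 to 96.6, 80.8 to 100.3 and 104 to 119 CPM. *Itga2*, an integrin chain that platelets and other cells also carry, and *Cd244a* made up 75.0% of the sum at WT gd10.5 and 97.4% at WT gd19.5. The other 13 genes summed to 44.7 ± 10.3 CPM (SD, n = 3) at WT gd10.5 and fell to 18.1%, 7.43% and 5.75% of that mean. In KO the 13 genes summed to 44.8 ± 19.49 CPM at gd10.5, or 52.7 and 59.1 CPM without replicate 2. At gd16.5 their KO libraries, from 2.19 to 2.84 CPM, lay wholly below the WT libraries, from 3.18 to 3.58 CPM, and at the other stages the genotypes overlapped. *Ncr1*, the NK receptor NKp46, had 3.35 CPM at WT gd10.5 and 0.0506 CPM at WT gd19.5, where 1 library was at 0. In WT, 13 of 14 tested genes of the list were called lower at gd14.5 than at gd10.5, against 28.3% of all genes tested. The 12 T cell markers, whose cells can also use *Il2rb* and *Il2rg*, summed to between 3.14 and 14.46 CPM over all libraries, and *Cd3d* was at 0 in all 3 WT gd19.5 libraries. The share of each cell type in the levels of the members was not tested.

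Between genotypes, no member passed the edgeR test at any stage, and DESeq2 called 0 members at each stage. At an unadjusted p under 0.05, edgeR had 1 member at gd16.5, 1 at gd19.5 and 0 at the earlier stages. Over all genes tested it had 1894 of 17071 at gd16.5 and 2354 of 17397 at gd19.5. At gd10.5 and gd14.5 it had 140 of 17480 and 1222 of 18024. At gd10.5, 0 of 9 were called, against 0.00572% of 17480 genes, and the smallest unadjusted p of a member was 0.471. For 0 of 9 the libraries of KO and WT did not overlap, against 4.18% of genes. All 9 log2 differences were between -0.28 (*Il15ra*, standard error 0.75) and 0.13 (*Il15*, standard error 0.415). Without KO replicate 2, *Il15* was at 0.47, *Nfil3* at 0.31, *Eomes* at 0.29, *Il15ra* at 0.24 and *Il2rb* at 0.09 (edgeR adjusted p = 0.999 for each). *Tbx21* was then at 0.24, *Jak3* at 0.02 and *Il2rg* at -0.05. The direction of 6 of the 9 genes at gd10.5, all but *Il15*, *Nfil3* and *Id2*, thus turned with that library.

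At gd14.5, 0 of 8 tested members were called, against 0.0166% of 18024 genes, and 0 of 8 had groups that did not overlap, against 12.5%. *Il2rb* was 0.19 higher in KO (standard error 0.087, unadjusted p = 0.0544, edgeR adjusted p = 0.736), and *Eomes* 0.30 (standard error 0.24, edgeR adjusted p = 0.835). At gd16.5, 0 of 8 were called, against 0.00586% of 17071 genes. The groups of 1 of 8, *Il2rb*, did not overlap, against 17.7% of genes. Its KO mean was 82.6 ± 7.85 CPM and its WT mean 66.9 ± 6.46 CPM (SD, n = 3 each), a log2 difference of 0.32 (standard error 0.10, unadjusted p = 0.0163, edgeR adjusted p = 0.421). Of 13 cell type marker lists, the summed levels of 6 did not overlap either at gd16.5. Spongiotrophoblast markers had 34483 to 37426 CPM in KO and 20727 to 28825 in WT, and giant cell markers 24958 to 29156 in KO and 16640 to 23769 in WT. Smooth muscle markers had 390.0 to 470 CPM in KO and 510 to 700 in WT, labyrinth markers 382 to 589 in KO and 597 to 702 in WT, and tissue-resident innate lymphoid markers 101 to 124 in KO and 127 to 149 in WT. The innate lymphoid list sums *Itga1*, *Tnfsf10*, *Cxcr6* and *Itgae*. The 13 NK genes without *Itga2* and *Cd244a* summed to only 2.19 to 3.58 CPM at this stage. The innate lymphoid sum is therefore not read as a number of lymphoid cells, and what other cells add to it was not tested. B cell markers were higher in KO, at 2.73 to 3.88 against 1.60 to 2.73 CPM. The part of these markers in the difference of *Il2rb* was not tested. *Il15* was at 0.46 (standard error 0.27, edgeR adjusted p = 0.508) and *Eomes* at -0.26 (standard error 0.26, edgeR adjusted p = 0.678).

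At gd19.5, 0 of 8 tested members were called, against 0.115% of 17397 genes. Groups did not overlap for 2 of 8, against 21.4% of genes. *Il2rb* had 61.9 ± 4.49 CPM in KO and 51.5 ± 2.23 CPM in WT (SD, n = 3 each), a log2 difference of 0.24 (standard error 0.072, unadjusted p = 0.00863, edgeR adjusted p = 0.231). Of the 13 marker lists, 3 lay wholly higher in KO at gd19.5, those named for macrophages and dendritic cells, tissue-resident innate lymphoid cells and trophoblast stem cells. That of decidual stroma lay wholly lower, and the part of these lists was not tested. As at gd16.5, the innate lymphoid sum is not read as a number of lymphoid cells. *Eomes* had 0.838 ± 0.0826 CPM in KO and 1.13 ± 0.0965 CPM in WT, a log2 difference of -0.45 (standard error 0.21, unadjusted p = 0.0598, edgeR adjusted p = 0.390). *Il15ra* was at -0.38 (standard error 0.22, edgeR adjusted p = 0.479) and had a negative log2 difference at 4 of 4 stages with all libraries. Without KO replicate 2 its difference at gd10.5 was 0.24. With 1 library left out it reached 0.027 at gd14.5 and 0.061 at gd16.5, so its direction was not steady. The differences of *Il2rg*, *Jak3*, *Nfil3* and *Id2* were within 0.16 of 0 at every stage with all libraries, but without KO gd10.5 replicate 2 *Nfil3* was at 0.31 and *Id2* at 0.21 at gd10.5.

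**Figure D3:**
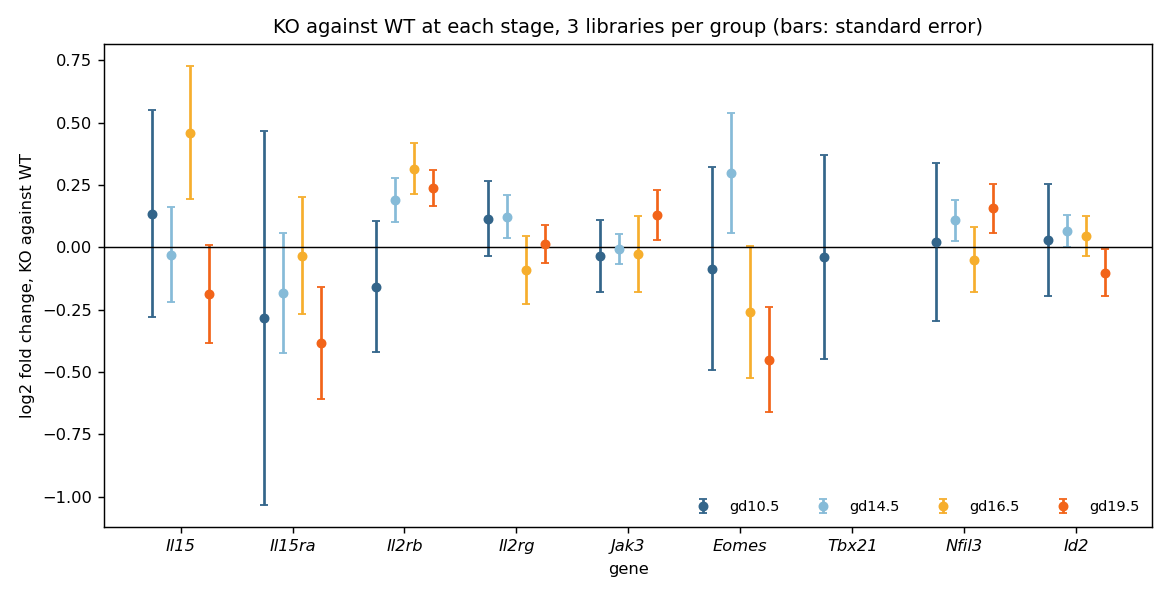
Log2 fold change of KO against WT (vertical) for each gene (horizontal), with 1 point per stage and bars of 1 standard error from edgeR, 3 libraries per group. *Il2rb* lay above 0 at gd14.5, gd16.5 and gd19.5 with values of 0.19, 0.32 and 0.24, and no point had an adjusted p under 0.05.

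Over all 4 stages, with stage in the model, 0 of the 9 genes were called, against 0.0155% of 19299 genes. None of the 9 had an unadjusted p under 0.05, against 1223 of all genes tested. *Il2rb* was 0.15 higher in KO (standard error 0.088, unadjusted p = 0.105, edgeR adjusted p = 0.856). Without KO gd10.5 replicate 2 the value was 0.22 (standard error 0.054, unadjusted p = 0.000502, edgeR adjusted p = 0.186). The other members lay between -0.36 (*Tbx21*, standard error 0.32) and 0.10 (*Il15*, standard error 0.15). The interaction of genotype and stage, which asks whether the KO difference varies between stages, called 0% of 19299 genes and 0 of the 9. At an unadjusted p under 0.05 it had 1396 genes and 0 of the 9, among which the smallest p was 0.221, for *Il2rb*.

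*Il2rb* lies 28075 bases from *C1qtnf6*, on the same strand of chromosome 15, so its neighbours were set beside it. Of the genes that start within 100 kb of *C1qtnf6*, 7 were tested over all 4 stages. *Sstr3*, a somatostatin receptor gene and the nearest of these at 5592 bases, was 1.54 higher in KO (standard error 0.25, edgeR adjusted p = 0.0149). It is a low gene, with at most 19 counts in any WT library and at most 44 in any KO library. *Tmprss6*, a membrane protease gene beyond *Il2rb* at 54712 bases, was at 0.56 (standard error 0.14, unadjusted p = 0.000826, edgeR adjusted p = 0.471). Its KO libraries lay wholly above its WT libraries at gd16.5 and gd19.5, as those of *Il2rb* did. Groups did not overlap, in either direction, for 17.7% and 21.4% of all genes at these stages. *Kctd17* lay wholly above at 1 of 4 stages, and *Rac2* and *Cyth4* at 0. Without KO gd10.5 replicate 2 *Sstr3* was at 1.73 (standard error 0.21, edgeR adjusted p = 0.00032) and *Tmprss6* at 0.57 (standard error 0.15, edgeR adjusted p = 0.197). With all libraries *Kctd17* was at 0.09, *Cyth4* at 0.09, *Rac2* at -0.03 and *Gm6723* at -0.08, none of them called. Without KO gd10.5 replicate 2 these were at 0.07, 0.17, 0.07 and -0.11 in the same order, again none called. *Rac2*, of blood cells, is 27751 bases from *C1qtnf6* on the other side.

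**Figure D4:**
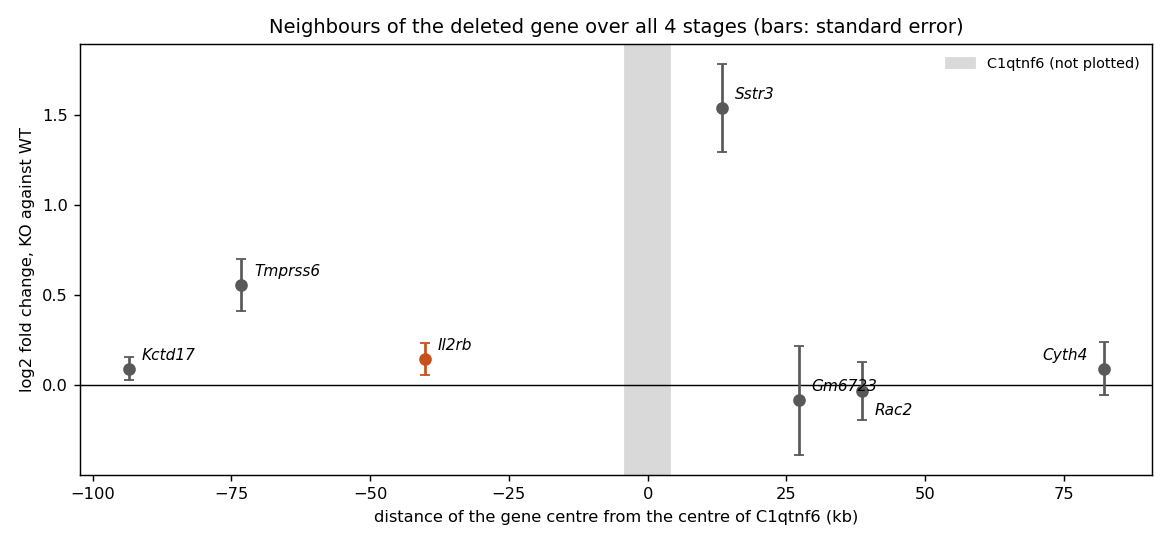
Log2 fold change of KO against WT over all 4 stages (vertical, bars of 1 standard error) by the distance of the gene centre from that of *C1qtnf6* in kb (horizontal), with *Il2rb* in orange and the deleted gene as a grey band. *Sstr3* was at 1.54, *Tmprss6* at 0.56 and *Il2rb* at 0.15, and the other 4 genes were within 0.10 of 0.

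Because NK cells carry *Il2rb*, it was also given relative to the NK identity list of the same library, as a log2 ratio of CPM. Its RNA did not follow the NK genes closely. At WT gd19.5 *Il2rb* was at 26.3% of its gd10.5 mean, and the 13 NK genes without *Itga2* and *Cd244a* were at 5.75%. What other cells add to it was not tested. The KO mean of this ratio differed from the WT mean by -0.157, 0.0976, 0.294 and 0.0629 from gd10.5 to gd19.5 in order of stage. The two-sided exact permutation p was 0.3, 0.9, 0.2 and 0.4, and 3 libraries against 3 cannot give less than 0.1. Over the 4 stages the mean difference was 0.0742 (exact permutation p = 0.327 over 160000 arrangements), with KO above WT at 3 of 4 stages. Without *Itga2* and *Cd244a*, a choice made after seeing the data, it was 0.290 (exact permutation p = 0.0811). At gd10.5 the difference was -0.138 without KO replicate 2 (exact permutation p = 0.3, with 0.1 the smallest possible). At gd16.5 the summed NK list had means of 89.1 CPM in WT and 89.7 CPM in KO. Against this sum the difference of the ratio lay in *Il2rb*, but the parts of the sum moved in opposite directions. *Itga2* had 65.9 CPM in WT and 73.3 in KO at gd16.5, *Cd244a* 19.8 and 13.98, and the other 13 genes 3.32 and 2.42. The KO libraries of *Cd244a* and of the 13 genes lay wholly below the WT libraries, while those of *Itga2* overlapped them. At gd19.5 both *Il2rb* and the list were higher in KO, the list with 98.1 CPM in WT and 112.6 in KO. Within the list *Itga2* had 76.5 CPM in WT and 92.6 in KO, *Cd244a* 19.0 and 17.6, and the other 13 genes 2.57 and 2.42.

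Other genes of the pathway were described by lists, with the number of genes called among those tested. Over all genes, 28.3% were called lower in WT and 24.1% in KO between gd10.5 and gd14.5. The shares were 9.91% and 8.1% at the second step and 4.81% and 0.666% at the last. At the first step 11264 of 18523 genes in WT and 9980 of 18467 in KO had an unadjusted edgeR p under 0.05. Shares called higher are not given, and the list counts were not tested against any share. Of 6 tested gamma-chain cytokine and receptor genes, 2 fell and 1 rose in WT between gd10.5 and gd14.5, with a median log2 change of -0.52. *Il2ra*, the high-affinity IL-2 receptor chain, fell by 2.91 (edgeR adjusted p = 1.62e-06) and *Il4ra* fell from 70.0 to 24.6 CPM (edgeR adjusted p = 7.15e-07), while *Il4* rose by 0.55 (edgeR adjusted p = 0.0293). At the next step *Il21r* and *Il7r* rose by 1.61 and 1.33 (edgeR adjusted p = 0.00739 and 0.0204) and *Il2ra* fell by a further 1.09 (edgeR adjusted p = 0.0278). In KO *Il21r* rose by 1.99 and *Il7r* by 1.30 at this step, 2 of 6 genes called, both higher. The receptor genes that partner *Il2rg* thus moved both ways at this step, at which *Il2rg* itself had log2 changes of -0.30 in WT, not called, and -0.53 in KO, called.

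Among 14 JAK-STAT genes downstream, 5 rose and 6 fell in WT between gd10.5 and gd14.5, with a median log2 change of -0.06. *Socs3*, a feedback inhibitor, fell by 1.41 and *Stat4*, which reads interleukin 12, by 1.14, while *Stat5a*, which reads IL-15, rose by 0.66 and *Socs1* by 0.57 (edgeR adjusted p at most 0.0324). Between gd14.5 and gd16.5 *Socs2* rose by 0.99, *Bcl2l11*, a death gene that IL-15 restrains, by 0.52 and *Mcl1*, a survival gene that it sustains, by 0.35, with 3 of 14 called, all higher. In KO 1 rose and 3 fell at the first step, or 2 and 6 without KO gd10.5 replicate 2, and 4 rose at the second. At the last step 1 gene fell in WT, *Stat5a*, which fell by 0.505 on the log2 scale (edgeR adjusted p = 0.0410).

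Of 20 further NK and innate lymphoid transcription factors, 12 fell and 4 rose in WT between gd10.5 and gd14.5, with a median of -0.31. *Myb* fell by 3.07, *Runx3* fell by 2.77 and *Ikzf1* fell by 2.54, while *Zfp683*, known as Hobit, rose by 2.92 from 0.0896 to 0.706 CPM (edgeR adjusted p at most 0.000509). At the second step *Myb* fell by 1.72 and *Runx3* fell by 1.34. In KO 8 of 18 fell and 4 rose at the first step, or 12 and 3 without KO gd10.5 replicate 2. The falls of *Myb*, *Runx3* and *Ikzf1* were of the size of that of *Eomes*, while *Nfil3* and *Id2* fell less.

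Among the 6 other Id and E protein genes, *Id4* rose by 1.40, *Id3* fell by 0.61 and *Tcf12* rose by 0.30 between gd10.5 and gd14.5 in WT (edgeR adjusted p at most 0.00266). *Id3* then rose by 0.82 and 0.66 at the next steps (edgeR adjusted p = 0.000503 and 0.0061). Of 8 tested cytokine and receptor genes that act on NK cells, 2 fell and 2 rose at the first step in WT. *Il12rb1* fell by 2.95 and *Il18bp*, which binds interleukin 18, by 0.89, and *Tgfb3* rose by 1.51 and *Il18r1* by 1.35 (edgeR adjusted p at most 0.00317). *Il18rap* rose by 1.08 and 1.57 at the later steps (edgeR adjusted p = 0.0389 and 0.0105). Of 8 clock and PAR bZIP genes, relatives and partners of *Nfil3*, 4 rose and 3 fell at the first step, with *Arntl* up by 1.18, *Hlf* by 1.13 and *Dbp* by 0.99 and *Nr1d1* down by a log2 change of -0.85 (edgeR adjusted p at most 0.00305). In each of the 6 lists, 0 genes were called between KO and WT by edgeR at any stage, over all stages or in the interaction. The smallest adjusted p of any of them was 0.118, for the Id and E protein list at gd19.5.

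The genes most like each member were found by Pearson correlation of log2 CPM over the 24 libraries among 15108 genes, as a description. These points share their stage, so that any gene with the same course through gestation scores high. *Eomes* was most like *A2m*, *Avil* and *Scin* (r = 0.990 for each), *Jak3* most like *Fscn1*, *Copg1* and *Sema5b* (r from 0.980 to 0.984) and *Il2rb* most like *Ptprn*, *Spn* and *Slc25a33* (r from 0.969 to 0.975). *Nfil3* was closest to *Gpihbp1*, *Zadh2* and *Adamts14* (r from 0.972 to 0.976), *Il2rg* to *Tmem132e*, *Hsd17b7* and *Akt1* (r from 0.952 to 0.957). *Il15ra* was closest to *Suox*, *Ldhd* and *Igfbpl1* (r from 0.970 to 0.974), with Spearman's rho of only 0.363 to 0.584, since its later libraries lay on 1 level. *Tbx21* was closest to *Cd200r4* (r = 0.947), *Il15* to *Ifitm1* (r = 0.867) and *Id2* to *Oat* (r = 0.848). Among the members, *Il2rb* and *Eomes* had r = 0.942 and rho = 0.883, *Jak3* and *Eomes* r = 0.925 and rho = 0.927, and *Il2rg* and *Nfil3* r = 0.0833. With group means removed, the nearest genes were *Samhd1* for *Il15ra* (r = 0.961), *Cdk6* for *Nfil3* (r = 0.956), *Prps2* for *Eomes* (r = 0.924) and *Rnh1* for *Il2rb* (r = 0.911). Without KO gd10.5 replicate 2 these became r = 0.465, 0.859, 0.847 and 0.719 in the same order, while the levels of each member and its nearest genes kept r within 0.01 of the values above.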

How the data were processed

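PolyA RNA of 24 MFI libraries was sequenced as stranded paired reads. By the processing notes of the submitters, the authors trimmed reads with Trim Galore 0.6.4, aligned them to GRCm38 with STAR 2.7.3a and deposited raw counts per gene made with featureCounts of Subread 2.0.0 at its defaults, so that strand was ignored and reads with more than 1 place in the genome were dropped. Library totals ran from 20975717 to 37383108, and differences within counting error cannot be seen for genes of a few counts. Libraries were grouped by genotype and stage in the labels. KO replicate numbers are those of the descriptions, which differ from the titles.

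KO was compared with WT within each stage, over all stages and by interaction, and neighbouring stages within each genotype, in edgeR 4.0.16 (R 4.3.3) by quasi-likelihood, on genes kept by filterByExpr with at least 10 counts and 15 in total, normalized by TMM. Calls had a Benjamini-Hochberg adjusted p under 0.05 over all genes tested. The exact permutation test of the *Il2rb* ratio was two-sided, shuffled genotype within stage and added 0.1 CPM. Log2 CPM used a prior count of 2.

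Alternatives were RLE size factors, no expression filter, all 24 libraries in one fit, a replicate block, Y-linked expression as a covariate, DESeq2 1.42.0, a log2 fold change over 1 beside the adjusted p, each library left out, and for the ratio another marker list and 0.5 CPM. An NK list without *Itga2* and *Cd244a* and the bias-adjusted form of the edgeR test were chosen after seeing the data. All 24 pairs of replicates differed beyond counting error (chi-square over degrees of freedom 8.68 to 188).

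The members and lists were chosen with earlier results of these data known. Named genes are the 9 members, *C1qtnf6*, tested genes that start within 100 kb of it, up to 4 called genes per list and comparison with the largest change, and the 3 genes most like each member with a mean of at least 1 CPM. *Itga2*, *Cd244a*, *Ncr1*, *Cd3d* and *Gm33460* were named after their values were seen. Promoters are from RefSeq on GRCm38.p6, with a window for 7 of the 9 members. The steps were tested on simulated data.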

Additional observations from a re-analysis of the deposited data

How the results depend on the processing

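The counts of members called between KO and WT were 0 at each stage, over all stages and in the interaction under all settings tried, with each library left out as well. For gd14.5 against gd10.5 they stayed within 7 and 8 of 9 in WT and 6 and 9 of 9 in KO with 1 library left out. The count for gd16.5 against gd14.5 in WT was 3, 5 with no expression filter and 1 with a log2 fold change over 1 required. For gd19.5 against gd16.5 in WT it was 3, 1 with a replicate block, 0 with the fold limit, and 0 to 3 with 1 library left out. At that step DESeq2 (DESeq2 adjusted p = 0.0185) and no expression filter (edgeR adjusted p = 0.000406) also called *Id2* lower, one fit of all 24 libraries did not call *Il2rb* (edgeR adjusted p = 0.215) and RLE size factors did not call *Jak3* (edgeR adjusted p = 0.0509). For gd16.5 against gd14.5 in KO it was 3, 1 with the fold limit, 2 with a replicate block and 4 with all 24 libraries in one fit, which also called *Il15* higher (0.92, edgeR adjusted p = 0.0353), and for gd19.5 against gd16.5 in KO it was 0, 1 with DESeq2 and 1 with all 24 libraries in one fit. The fold limit leaves out falls under 1 by its construction, and the causes of the other moves were not tested.

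The numbers of the libraries were not taken as pairs. The deviations of same-numbered WT and KO libraries had correlations from -0.455 to 0.406, with 0.027 to 0.167 at gd14.5 and 0.038 to 0.114 at gd19.5. These few values cannot decide whether the numbers pair the libraries. They also do not bear on the replicate block in the steps within a genotype. The replicate block lost the call of *Il2rb* for gd16.5 against gd14.5 in WT (edgeR adjusted p = 0.0605), of *Il2rb* (edgeR adjusted p = 0.0710) and *Jak3* (edgeR adjusted p = 0.0672) for gd19.5 against gd16.5 in WT, and of *Il2rg* for gd16.5 against gd14.5 in KO (edgeR adjusted p = 0.0535). It turned *Nfil3* at gd10.5 to -0.049 and changed no other call of a member.

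Directions that turned belonged to values that were not called. With Y-linked expression as a covariate, KO against WT at gd10.5 gave 0.32 for *Il15ra*, 0.11 for *Il2rb*, -0.048 for *Il2rg*, 0.024 for *Jak3*, 0.32 for *Eomes* and 0.26 for *Tbx21*, at gd16.5 it gave 0.0070 for *Il2rg* and 0.043 for *Jak3*, and over all stages 0.012 for *Eomes*. At gd10.5 the Y-linked sum was 71.0 CPM in KO replicate 2 and at most 0.311 CPM elsewhere. The covariate there mainly sets that library apart, as leaving it out does. At gd10.5 *Nfil3* had -3.7e-07 with no expression filter. *Il15ra* for gd16.5 against gd14.5 in WT had -0.0016 with all 24 libraries in one fit, -0.0064 with the bias-adjusted test and -0.0028 with no expression filter. With 1 library left out, log2 differences of KO against WT ran at gd10.5 from -0.13 to 0.47 for *Il15*, -0.78 to 0.24 for *Il15ra*, -0.37 to 0.089 for *Il2rb*, -0.051 to 0.25 for *Il2rg*, -0.16 to 0.081 for *Jak3*, -0.34 to 0.29 for *Eomes*, -0.39 to 0.24 for *Tbx21*, -0.25 to 0.31 for *Nfil3* and -0.11 to 0.21 for *Id2*, at gd14.5 from -0.16 to 0.075 for *Il15*, -0.27 to 0.027 for *Il15ra* and -0.041 to 0.021 for *Jak3*, at gd16.5 from -0.18 to 0.061 for *Il15ra*, -0.19 to 0.056 for *Il2rg*, -0.15 to 0.14 for *Jak3*, -0.14 to 0.091 for *Nfil3* and -0.0062 to 0.10 for *Id2*, at gd19.5 from -0.023 to 0.056 for *Il2rg*, and over all stages from -0.011 to 0.053 for *Jak3*, -0.15 to 0.069 for *Eomes* and -0.016 to 0.053 for *Id2*. Between stages they ran from -0.088 to 0.21 for *Il15ra* and -0.84 to 0.28 for *Tbx21* for gd16.5 against gd14.5 in WT, from -2.18 to 0.25 for *Tbx21* and -0.040 to 0.19 for *Nfil3* for gd19.5 against gd16.5 in WT, from -0.0097 to 0.22 for *Il15ra* and -0.011 to 0.12 for *Nfil3* for gd16.5 against gd14.5 in KO, and from -0.24 to 0.036 for *Il15ra* and -0.22 to 0.47 for *Tbx21* for gd19.5 against gd16.5 in KO. The causes were not tested.

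Depth limits *Tbx21*, with at most 5 counts per library from gd14.5 on. The *Il2rb* ratio ran from 0.0379 without KO gd14.5 replicate 3 to 0.113 without KO gd16.5 replicate 1.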
